A study of Sus scrofa with 6 samples.

Results

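The insulin-like growth factor (IGF) family was followed in the developing pig cerebral cortex at 2 days of gestation, E80 and E60. Its members were all probe sets of the array whose only gene symbol in the platform annotation is IGF1, IGF2, IGF1R, IGF2R or one of IGFBP1 to IGFBP7. The rule found 25 probe sets of 23999, which cover 8 of the 11 genes, and no measured value entered it. IGF2 has 13 of them, IGF1 has 3, IGF1R, IGFBP1 and IGFBP6 have 2 each, and IGF2R, IGFBP2 and IGFBP5 have 1 each. No probe set carries the symbol IGFBP3, IGFBP4 or IGFBP7 in that annotation, so these 3 genes were not analysed here. Cortical RNA was taken from 3 embryos at E80 and 3 embryos at E60, with no treatment and no genetic change in either group, and each embryo was hybridised to 1 Affymetrix Pig Genome Array. The labels give neither breed, sex nor the litter of a single array. The study's design text speaks of litter mates, so a difference between litters and a difference between days cannot be told apart.

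IGF1 and IGF2 are secreted peptides related to insulin, and both act mainly through IGF1R, a receptor tyrosine kinase that feeds the PI3K-AKT-TOR and RAS-MAPK cascades. IGF2R, which also carries mannose 6-phosphate proteins to lysosomes, takes up IGF2 and clears it without a kinase signal. The IGF binding proteins hold the ligands in the extracellular fluid and the matrix, where they limit or prolong access to the receptor, and proteases release the ligands again. In the embryonic brain of rodents the system promotes division of progenitors and survival of neurons, and much of the IGF2 comes from the choroid plexus, the meninges and the vessels, which deliver it to the cerebrospinal fluid and the tissue.

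The values were MAS5 signals, a linear intensity in arbitrary units that combines the short probes of a set into 1 number per array. The 6 arrays had similar overall levels, with medians of 55.6 to 59.5 at E80 and 60.9 to 64.8 at E60. The log2 change of a probe set was the mean log2 signal at E80 minus that at E60. It was tested with limma, with p-values adjusted over all probe sets and a threshold of 0.05. Of all probe sets, 224 were called higher and 243 lower at E80, and median centring of the arrays, which adds 0.12 to every log2 change, turned this split into 311 higher and 108 lower. E80 replicate 3 stood apart through choroid plexus genes. The summed signal of the 4 measured markers of 10 listed was 109, 196 and 5463 on the E80 arrays and 88.6 to 174 on the E60 arrays. TTR, which encodes the thyroxine carrier transthyretin and defines the choroid plexus, supplied most of the sum on E80 replicate 3, with 15.1, 6.25 and 4475 at E80 and 1.47 to 3.70 at E60. The 4 measured of 9 listed neuron markers summed to between 11286 and 11796 at E80 and to between 9248 and 9837 at E60.

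No IGF family probe set differed between E80 and E60 at the adjusted threshold in limma. The count was 0 of 25, against 1.95% of all probe sets called in either direction and 1.01% called lower. The log2 changes ran between -0.90 and 0.52, with 12 higher and 13 lower at E80 and a median of -0.01, beside a median of -0.05 over all probe sets. At an unadjusted p under 0.05 there were 2 of 25, both IGF1R, against 18.0% of all probe sets. The same 2 were also the IGF family probe sets in which the arrays of the days did not overlap, both lower at E80, where 14.4% of all probe sets were lower and 23.6% were separated in either direction. By a rule of at least 3-fold, the threshold of the study's methods, with the arrays of the days not overlapping, as their consistent direction on the triplets was read here, the count was 0 of 25, against 1.21% of all probe sets. Of the 25, 11 lay above the median level of the array, a signal of 59.8, and 14 lay at or below it. The dim ones had wide intervals, as the plot of log2 changes shows.

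**Figure D1:**
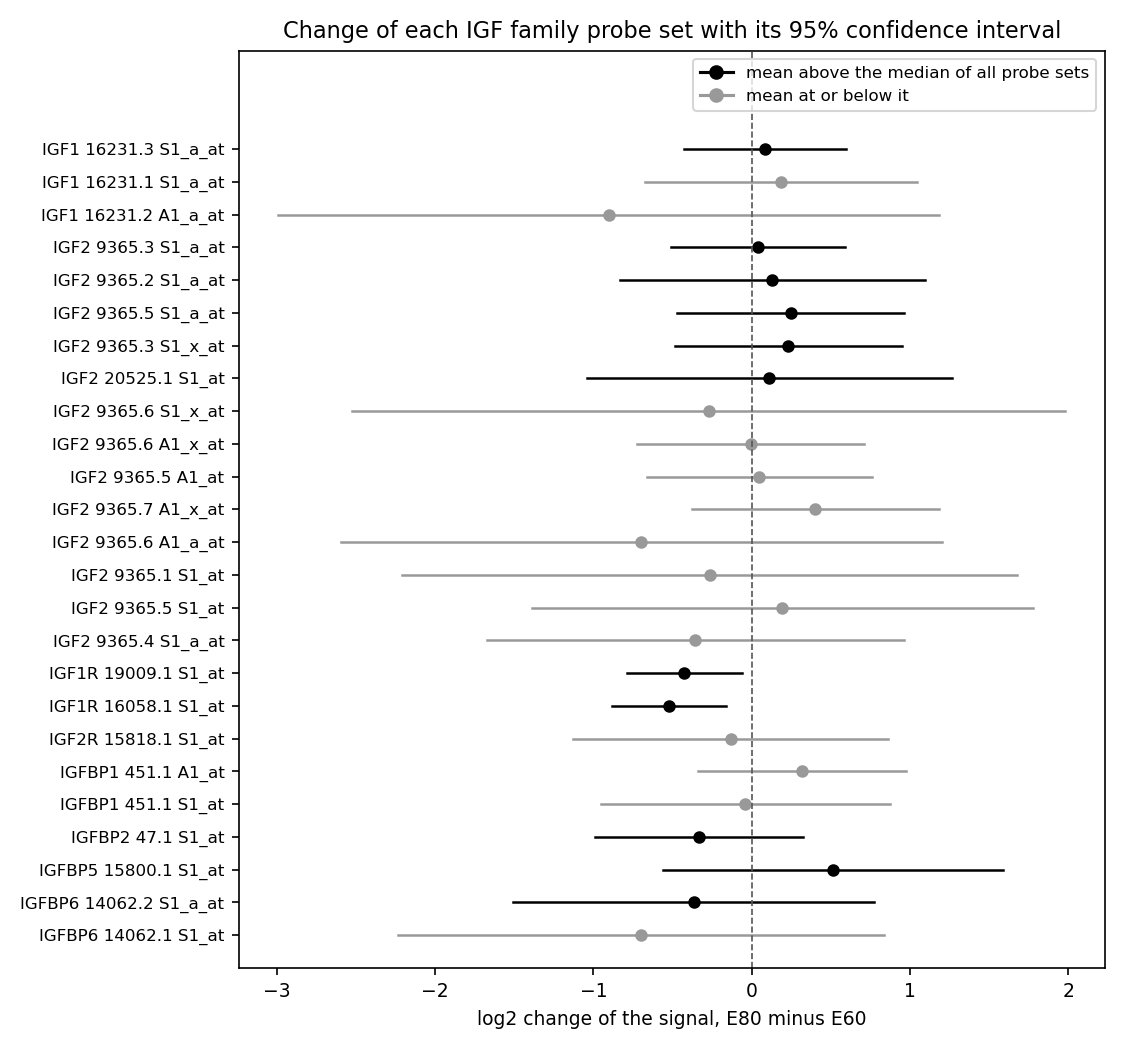
Log2 change of the signal, E80 minus E60, for each of the 25 IGF family probe sets on the x axis, with the 95% confidence interval from limma (3 arrays per day). Black marks probe sets whose mean log2 signal lies above the median of all probe sets and grey the others; the intervals of both IGF1R probe sets lie below 0 and the other 23 intervals include 0.

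IGF2 gave 5 probe sets above the median level, and these did not separate E80 from E60 but split the E80 embryos. Ssc.9365.3.S1_a_at, the brightest, had 278, 492 and 540.0 on the E80 arrays, against 403, 355 and 475 on the E60 arrays. Its mean was 437 ± 139 at E80 and 411 ± 60.5 at E60 (SD, n = 3 each), a log2 change of 0.04 with a 95% confidence interval of -0.51 to 0.59 and an adjusted p of 0.954 in limma. The E80 embryos thus lay both below and above all E60 embryos. Ssc.20525.1.S1_at showed the same split with a wider spread, at 36.7, 166 and 143 at E80, against 92.3, 83.9 and 89.7 at E60. The highest E80 signal of this probe set was 4.53 times the lowest, whereas at E60 the ratio was 1.10. Its log2 change was 0.11 (SE 0.50, adjusted p 0.936 in limma).

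The other 3 bright IGF2 probe sets followed the same embryos. Ssc.9365.2.S1_a_at had 106, 391 and 262 at E80 and 230.0, 158 and 229 at E60. Ssc.9365.5.S1_a_at had 96.7, 243 and 215 at E80 and 143, 134 and 158 at E60. Ssc.9365.3.S1_x_at had 85.9, 214 and 151 at E80 and 125, 96.2 and 142 at E60. In 5 of 5 bright IGF2 probe sets, E80 replicate 1 was the lowest of all 6 arrays and E80 replicates 2 and 3 were above every E60 array. E80 replicate 1 had 0.41 to 0.72 times the E60 mean (geometric), E80 replicate 2 had 1.21 to 1.93 times and E80 replicate 3 had 1.26 to 1.62 times. These probe sets read transcripts of 1 gene on the same arrays and are not independent. Their log2 signals correlated with a Pearson r of 0.86 to 0.97 over the 6 arrays (10 pairs, median 0.93), which is a description. The suffix of Ssc.9365.3.S1_x_at marks probes that may also bind other sequences.

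The spread of IGF2 among the E80 embryos was wide beside that of all probe sets above the median level, which were not matched for signal. In all 5 the SD of the log2 signal was larger at E80 than at E60, as was the case for 51.3% of the 11999 probe sets above the median level. The SD at E80 exceeded that of between 95.7% and 99.7% of those probe sets. Without E80 replicate 1 the log2 changes of the 5 were 0.34 to 0.80, with adjusted p-values of 0.113 to 0.375 in limma. In that fit 4 of the 5 had an unadjusted p under 0.05, as had 6 of the 25 family probe sets and 3299 of all 23999. The array left out was chosen because it was lowest in these probe sets of 1 gene, so the count is a description. With all arrays the 5 changes were 0.04 to 0.25. The direction at E80 therefore rested on which E80 embryos were included, and without E80 replicate 2 all 5 changes were below 0, between -0.29 and -0.0042.

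**Figure D2:**
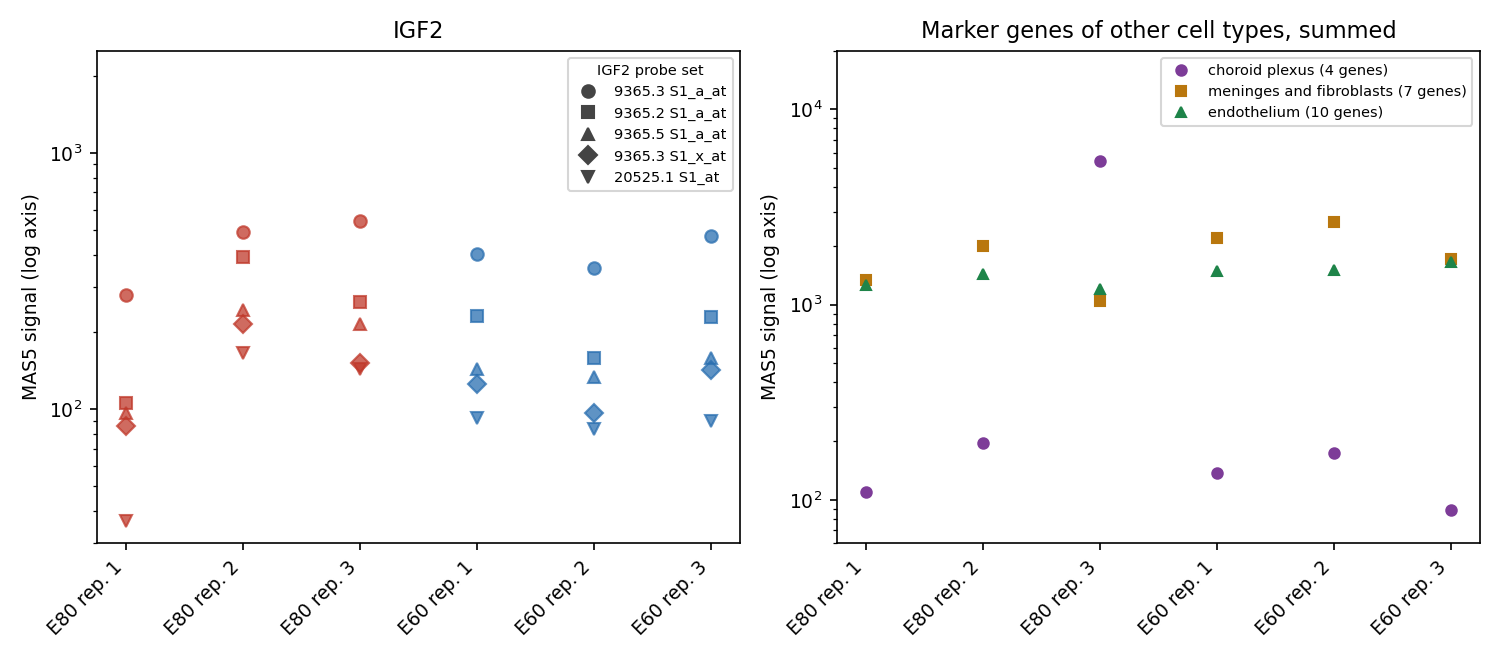
Left, MAS5 signals (log axis) of the 5 IGF2 probe sets above the median level on each array, with E80 in red and E60 in blue; E80 replicate 1 is lowest and E80 replicates 2 and 3 lie above all E60 arrays in each. Right, summed signals (log axis) of the measured choroid plexus, meninges and fibroblast, and endothelium markers on the same arrays, where choroid plexus reaches 5463 on E80 replicate 3.

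Markers of the tissues that release IGF2 in the rodent embryo were read on the same arrays. The 7 measured of 12 listed meninges and fibroblast markers summed to 1337, 1988 and 1038 on the E80 arrays and to 2204, 2645 and 1709 on the E60 arrays. LUM, which encodes the collagen-binding proteoglycan lumican, had 90.4, 196 and 71.1 at E80 and 213, 241 and 198 at E60. E80 replicate 3 was the lowest array for both. FN1 made up the largest part of the meninges and fibroblast sum, with 835, 1019 and 649 at E80 and 1034, 1163 and 770 at E60. The 10 measured of 11 listed endothelium markers summed to between 1202 and 1432 at E80 and to between 1492 and 1651 at E60. The choroid plexus sum was 109, 196 and 5463 at E80 and 137, 174 and 88.6 at E60. On E80 replicate 2 the ENPP2 signal was 130, against 41.0 to 106 at E60. The AQP1 and FOLR1 signals in the sum lay within their E60 ranges on that array. TTR was 6.25 on E80 replicate 2 and 15.1 on E80 replicate 1, an order unlike that of IGF2. The other measured markers had the order of IGF2 on these arrays, lower on E80 replicate 1 than on E80 replicate 2. They had 65.1 and 130 (ENPP2), 22.9 and 33.3 (AQP1) and 6.05 and 26.6 (FOLR1). No detection calls of the markers were used, and the part of these cell types in the IGF2 signals was not tested. In bulk tissue, fewer cells of a type and less RNA per cell cannot be told apart.

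The remaining 8 IGF2 probe sets were dim, with signals between 1.08 and 82.9, and had log2 changes of -0.70 to 0.40, 3 higher and 5 lower at E80. Ssc.9365.6.S1_x_at had its lowest signal on E80 replicate 1, with 5.47, 71.6 and 82.9 at E80, against 74.9, 21.8 and 35.0 at E60. Ssc.9365.4.S1_a_at was also lowest on that array, at 1.19. The other dim IGF2 probe sets were lowest on E60 replicate 2 or E80 replicate 3. The adjusted p-values of all 8 in limma were 0.588 or more. The annotation of the pig genome used for names (Sscrofa11.1, RefSeq) places IGF2 directly beside INS, the insulin gene. INS, read by Ssc.583.1.S1_at, was dim on every array, with signals of 1.58 to 3.09 at E80 and 1.57 to 2.72 at E60, and whether these exceed the background is not known here.

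IGF1, the growth hormone dependent ligand that neurons and microglia also make in the rodent brain, had overlapping signals on the 2 days. Ssc.16231.3.S1_a_at had 55.5, 82.8 and 70.7 at E80, against 74.3, 71.8 and 51.0 at E60, and the groups overlapped throughout. Its mean was 69.7 ± 13.7 at E80 and 65.7 ± 12.8 at E60 (SD, n = 3 each). The log2 change was 0.09 with a 95% confidence interval of -0.43 to 0.60, and the adjusted p was 0.882 in limma. The interval does not reach a doubling or a halving of the signal. The 5 measured of 9 listed microglia markers summed to 258, 251 and 738 on the E80 arrays and to between 171 and 266 on the E60 arrays, and their part in the IGF1 signals was not tested. The other IGF1 probe sets were dim. Ssc.16231.1.S1_a_at had 27.4, 26.2 and 14.9 at E80 and 20.5, 26.4 and 13.5 at E60. Ssc.16231.2.A1_a_at had 15.5, 2.67 and 10.4 at E80 and 20.3, 4.00 and 34.7 at E60, with a log2 change of -0.90 and an interval from -2.99 to 1.19.

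Among the receptors, IGF1R had the smallest p-values of the 25 probe sets and was lower on each E80 array than on any E60 array in both of its probe sets. Ssc.16058.1.S1_at had 63.0, 77.9 and 83.2 at E80, against 108, 99.5 and 113 at E60. The highest E80 embryo, at 83.2, stayed below the lowest E60 embryo, at 99.5. The log2 change was -0.52 (SE 0.16, 95% confidence interval -0.88 to -0.16), a fold of 0.70, with an unadjusted p of 0.010 and an adjusted p of 0.134 in limma. Ssc.19009.1.S1_at had 109, 90.8 and 116 at E80, against 161, 121 and 142 at E60. Here the nearest embryos of the days were at 116 for E80 and 121 for E60. The log2 change was -0.42 (SE 0.16, interval -0.79 to -0.06), a fold of 0.75, with an unadjusted p of 0.027 and an adjusted p of 0.209. After median centring the changes were -0.41 and -0.31. Neither probe set passed the adjusted threshold under any alternative tried, and both stayed below 0 under each.

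Both IGF1R probe sets read 1 gene, and their log2 signals had a Pearson r of 0.76 over the 6 arrays. Several summed markers were separated by the day on the same arrays. They were lower at E80 for the endothelium and higher at E80 for neurons, both given above. The nearest endothelium sums were 1432 at E80 and 1492 at E60, and none of the 21 endothelium probe sets was called in limma. CLDN5 made up the largest part of that sum, with 674, 813 and 640 at E80 and 768, 839 and 900 at E60. Its own signals overlapped between the days. The sums were not median centred, and each E80 array median was below every E60 array median. The 7 measured of 8 listed astrocyte markers summed to between 2876 and 5624 at E80 and to between 1980 and 2345 at E60, with 3 of their 12 probe sets called higher in limma and none lower. The 5 measured of 8 listed markers of radial glia, progenitors of the cortex, summed to between 4625 and 5120 at E80. At E60 they summed to between 5185 and 5324, and the sum was made up mostly of FABP7 and VIM. The called members of that list were higher at E80, HOPX with a log2 change of 0.84 and TNC with 1.01 (adjusted p 0.023 and 0.049 in limma). The part of these cell types in the IGF1R signals was not tested. IGF2R, read by the dim Ssc.15818.1.S1_at, had 24.2, 28.5 and 30.4 at E80, against 34.2, 15.2 and 53.1 at E60. The E80 signals lay within the E60 range (log2 change -0.13, interval -1.13 to 0.86, adjusted p 0.907 in limma).

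**Figure D3:**
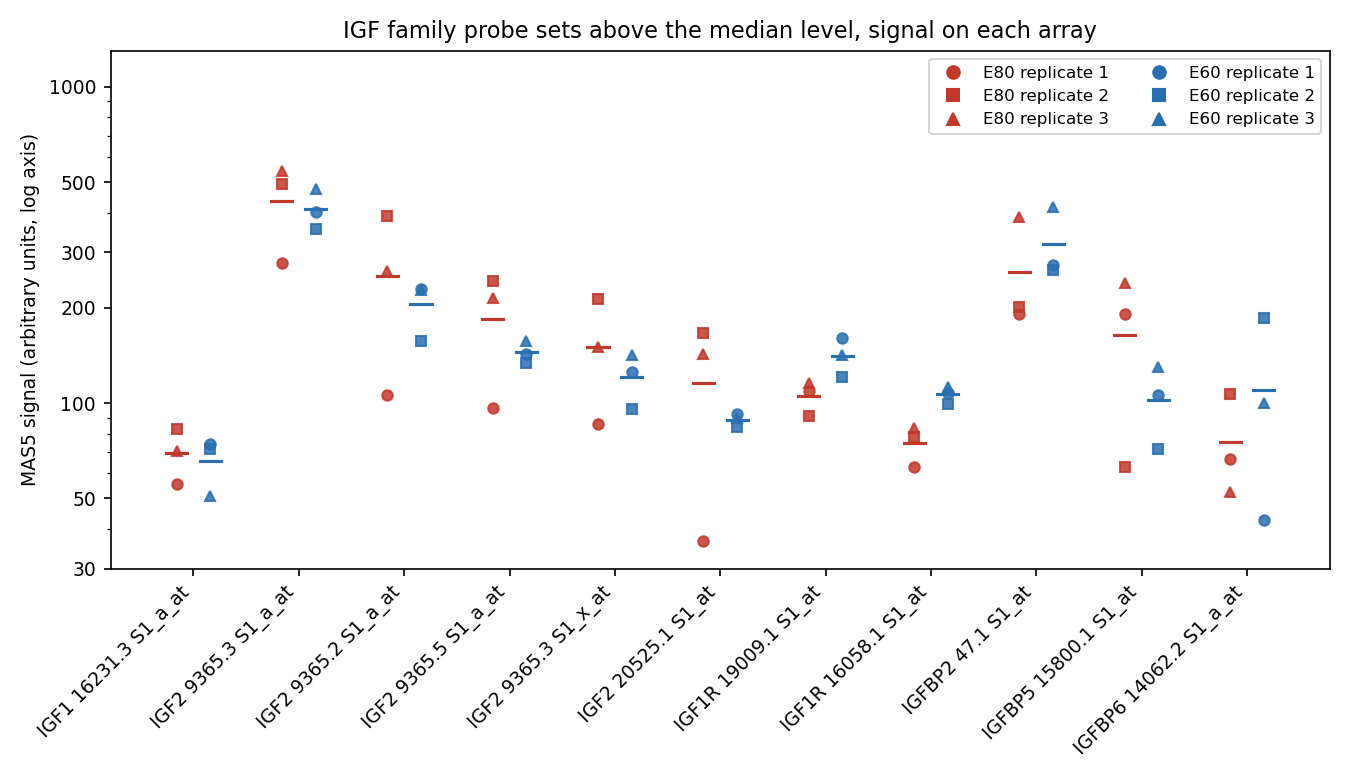
MAS5 signals (log axis, arbitrary units) of the 11 IGF family probe sets above the median level, with a symbol for each array, E80 in red to the left of E60 in blue, and a bar at the mean of 3 arrays. The days are separated in both IGF1R probe sets and overlap in the other 9.

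Of the binding proteins, IGFBP2 and IGFBP5 were above the median level and neighbour each other in the RefSeq annotation, and neither passed the test. IGFBP2, a major binding protein of the fetal brain and its fluid, had 191, 202 and 387 on the E80 arrays of Ssc.47.1.S1_at, against 272, 264 and 416 on the E60 arrays. In each group replicate 3 was well above the other two, and the groups overlapped. The mean was 260.2 ± 110.3 at E80 and 317 ± 85.8 at E60 (SD, n = 3 each), a log2 change of -0.33 with an interval of -0.99 to 0.33 and an adjusted p of 0.596 in limma. Without E80 replicate 3, the array with the choroid plexus sum of 5463, both E80 signals were below all E60 signals, and the log2 change was -0.66 (adjusted p 0.179). Without E60 replicate 3 it was -0.12 (adjusted p 0.857 in limma). Each array left out was the highest of its day in this probe set, so both values are a description. E60 replicate 3 had a choroid plexus sum of 88.6, the lowest of the 6 arrays. The part of the choroid plexus in the IGFBP2 signals was not tested.

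IGFBP5, which binds to matrix as well as to the ligands, had 191, 62.8 and 239 on the E80 arrays of Ssc.15800.1.S1_at, against 106, 71.7 and 130 on the E60 arrays. E80 replicates 1 and 3 were above all E60 embryos, and E80 replicate 2 was the lowest of all 6. The mean was 165 ± 91.3 at E80 and 102 ± 29.2 at E60 (SD, n = 3 each). The log2 change of 0.52 was the highest of the 25 probe sets, with an SE of 0.47, an interval of -0.56 to 1.59 and an adjusted p of 0.615 in limma. It was 1.11 without E80 replicate 2 (adjusted p 0.0854) and 0.14 without E80 replicate 3 (adjusted p 0.920). These arrays were the lowest and the highest E80 array in this same probe set, so both values are a description. The split of the E80 embryos differed from that of IGF2, where replicate 1 was low. Over the 6 arrays, IGFBP5 had a Pearson r of -0.03 with the brightest IGF2 probe set, 0.38 with IGFBP2 and -0.63 with IGFBP6, given as a description.

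IGFBP6, which binds IGF2 more tightly than IGF1, varied more among the E60 than among the E80 embryos. Ssc.14062.2.S1_a_at had 66.5, 107 and 52.4 at E80, against 42.8, 186 and 100.2 at E60. The dimmer Ssc.14062.1.S1_at lay between 11.3 and 38.9 at E80 and between 13.9 and 68.7 at E60. In both, replicate 2 was the highest embryo of its day, and replicate 2 of each day also had the highest meninges and fibroblast sum of that day, 1988 at E80 and 2645 at E60. The part of those cells was not tested. The log2 changes were -0.37 and -0.70, with adjusted p-values of 0.752 and 0.638 in limma. IGFBP1, in adults a product of the liver, was dim in both probe sets, with signals of 8.95 to 25.0 at E80 and 11.2 to 21.6 at E60. Its log2 changes were 0.32 and -0.04.

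Other genes of the pathway were read from 7 lists with 80 probe sets, of which 1 passed the adjusted threshold in limma, lower at E80, and none passed higher. This share lies near that of all probe sets, 1.95% in either direction and 1.01% lower. The probe set was Ssc.26786.1.S1_at of EIF4EBP2, a repressor of cap-dependent translation that TOR inactivates. The signals were 303, 327 and 298 at E80, against 430.4, 429 and 483 at E60, with a log2 change of -0.53 (SE 0.10, adjusted p 0.038). Of the other 4 EIF4EBP2 probe sets, Ssc.30822.1.A1_at and Ssc.3953.1.S1_at had lower signals on each E80 array, with log2 changes of -0.77 and -0.71 and adjusted p-values of 0.073 and 0.088. The changes of Ssc.1179.1.S1_at and Ssc.26419.1.A1_at were -0.23 and 0.08. The call of Ssc.26786.1.S1_at was lost under median centring (log2 change -0.42, adjusted p 0.10) and when any 1 of the 6 arrays was left out (adjusted p 0.053 to 0.145). The 28 probe sets of adaptors and the PI3K-AKT-TOR arm (16 genes) had a median log2 change of -0.12, beside -0.05 over all probe sets.

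No probe set of the other 6 lists passed the threshold. Of the 19 genes listed as IGF2 transcript binders and imprinted growth network, 6 were measured, with 11 probe sets. They were CTCF and the imprinted genes PLAGL1, MEG3, NNAT, PEG3 and GNAS. These 11 probe sets had a median log2 change of -0.40, with 8 lower and 3 higher at E80. CTCF, whose protein insulates IGF2 from its enhancers in mouse and human, had 395, 435 and 343 on the E80 arrays of Ssc.6712.1.A1_at, against 520.5, 600.0 and 566 on the E60 arrays. The groups did not overlap (log2 change -0.53, SE 0.11, adjusted p 0.059). In the other CTCF probe set, Ssc.25097.1.S1_at, they overlapped, with 269, 388 and 184 at E80 and 448, 366 and 293 at E60. Its log2 change was -0.44 (adjusted p 0.432 in limma). PLAGL1, an imprinted zinc finger factor, had a log2 change of -0.56 in Ssc.9617.1.A1_at (adjusted p 0.157). The 10 probe sets of the SHC-RAS-MAPK arm (7 genes) had a median of 0.19, with 8 higher and 2 lower. Their smallest p-values belonged to the adaptors SHC1, at -0.43, and GRB2, at 0.17 (adjusted p 0.350 and 0.368).

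The growth hormone axis had a median of -0.04 over 11 probe sets of 7 genes. GHR, the growth hormone receptor, had 17.9, 28.7 and 5.84 at E80, against 6.67, 3.74 and 3.09 at E60, all dim, with a log2 change of 1.76 (adjusted p 0.199). STAT5B, which carries that receptor's signal, had a change of -0.23 in Ssc.16047.1.S1_at and of -0.12 in Ssc.16047.2.S1_at (adjusted p 0.440 and 0.854 in limma). The insulin and relaxin list had a median of 0.01 over 7 probe sets of 5 genes. Its extreme value was in Ssc.15986.2.S1_at of INSR, the insulin receptor, with a log2 change of -2.07 (interval -3.66 to -0.49, adjusted p 0.166) at signals under 20. The other INSR probe sets had changes of 0.13 and -0.08, and the insulin-degrading enzyme IDE had 0.27. Proteases and complex partners of the binding proteins had a median of -0.22 over 11 probe sets of 6 genes. The lysosomal protease CTSD had a change of 0.60 (adjusted p 0.242). The secreted PAPPA inhibitor STC1 had a change of -0.92 in Ssc.2464.1.S1_at (adjusted p 0.400), and of -0.22 in Ssc.15105.1.S1_at and 0.32 in the dim Ssc.15105.2.A1_at. Of the IGFBP-related proteins, the matrix protein CYR61 had a change of -0.64 (adjusted p 0.214) and the membrane protein CRIM1 of 0.07.

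**Figure D4:**
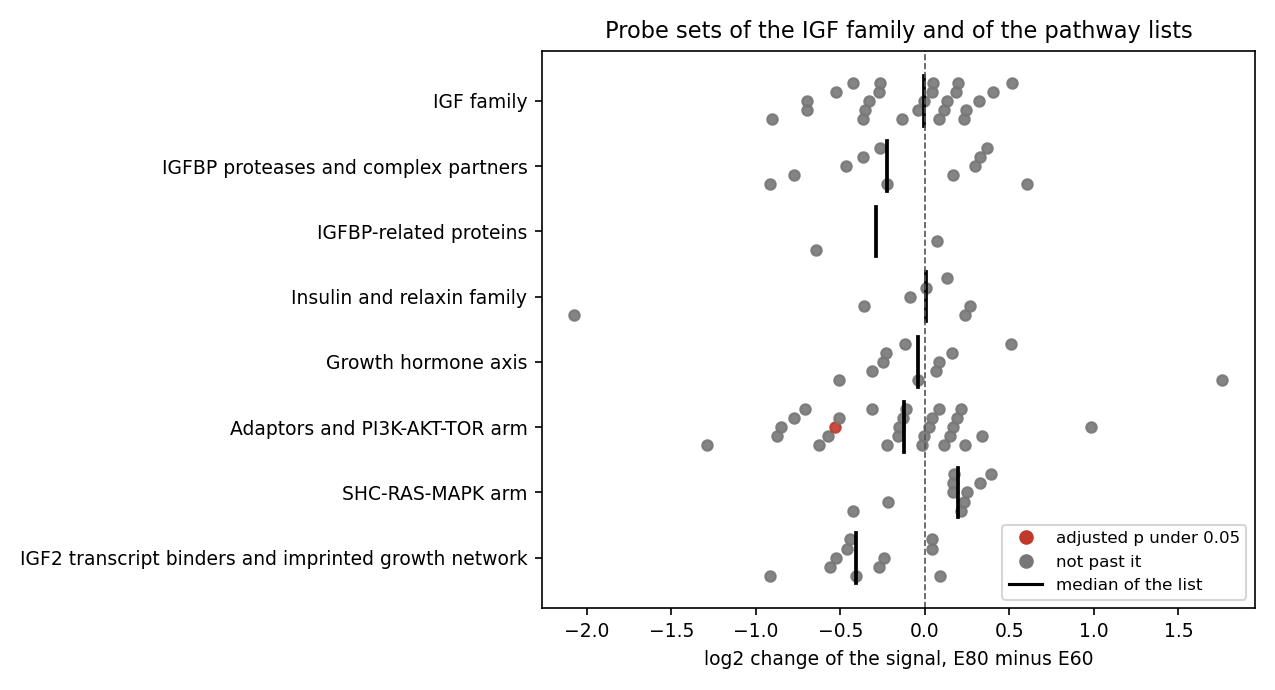
Log2 change of the signal, E80 minus E60, of the 25 IGF family probe sets (top row) and of the 80 probe sets in 7 pathway lists, 1 point per probe set, with a bar at each list's median. The single red point, EIF4EBP2 at -0.53, passed the adjusted threshold in limma, and the IGF family median lies at -0.01.

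The genes whose signals ran most like a family member's over the 6 arrays were found by Pearson correlation of log2 signals, among the probe sets above the median level with 1 symbol, as a description. For IGF2 they were SMIM19, HAUS2 and IL11RA, with r of 0.98, 0.95 and 0.95. For IGF1 they were RPL35, NIFK and CDC37L1, with r of 0.98, 0.98 and 0.96. SPG21, RPS27L and TRA2B each had an r of 0.99 with IGFBP2, and LETM1, DGKZ and SQSTM1 had 0.99, 0.99 and 0.98 with IGFBP5. With 6085 to 6089 probe sets compared over 6 arrays, these genes were picked as the highest values of a large search. DGKZ showed the IGFBP5 split of the E80 embryos in its own signals, with 189, 88.5 and 221 at E80 and 123, 97.3 and 129 at E60.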

How the data were processed

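Per the labels, the deposited intensity was computed with MAS5, which gives each probe set a linear signal on every array. The authors' software sets matching against mismatching probes and scales whole arrays. Its version is not given in the sources used here. As for detection, the study gives how many probe sets were called present per array, and calls of single probe sets were not used here. Signals were taken as log2 without a pseudocount, the manufacturer's 124 controls were removed, and the remaining 23999 probe sets were compared over 6 arrays with limma 3.58.1 in R 4.3.3 (lmFit, eBayes with intensity trend, two-sided, Benjamini-Hochberg adjustment over all of them). The study's methods name no statistical test. The fit was tested on simulated data before use. Confidence intervals (95%) come from the moderated SE. The p-values set the difference between days against the moderated spread between embryos of a day. The labels do not say whether embryos of a day share a litter, and if they do, the spread between litters is left out. Array signals have no counting depth, and 3 arrays per day limit the precision.

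All 25 family probe sets carry the same symbol in RefSeq (Sscrofa11.1) through their Entrez IDs, and that table was used for names and gene order only. The study lists a transcript similar to an IGF binding protein among those past its 3-fold threshold, lower at E80. That transcript was not matched to a probe set and is not analysed here, so the counts for the family do not cover it. Named genes were every family probe set, pathway probe sets past the threshold or otherwise the 2 with the smallest p of a list, and the 3 probe sets most correlated with the brightest one of IGF1, IGF2, IGFBP2 and IGFBP5. INS, the further EIF4EBP2, INSR, STC1, CTCF and STAT5B probe sets, and the markers LUM, FN1 and CLDN5 were added after their values were seen. Marker sums used the brightest probe set per gene. Members and lists were chosen with earlier results of these data known. Alternatives were median centring, array weights, quantile normalization, a pseudocount of 32, a restriction to the brightest 66%, other variance models, other fold rules and leaving out each array in turn.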

Additional observations from a re-analysis of the deposited data

How the results depend on the processing

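No family probe set was called under any of the 13 alternative fits, nor by the alternative fold rules, and the lowest adjusted p of any was 0.0795, for IGF1R (Ssc.16058.1.S1_at) with array weights. Of 314 log2 changes of family probe sets under these fits, 274 kept their direction and 40, in 16 probe sets, did not. Array weights turned IGF2R to 0.087, IGF1 Ssc.16231.3.S1_a_at to -0.069 and IGF2 Ssc.20525.1.S1_at, Ssc.9365.2.S1_a_at, Ssc.9365.3.S1_a_at and Ssc.9365.6.A1_x_at to -0.19, -0.044, -0.028 and 0.052. Quantile normalization and median centring turned IGFBP1 Ssc.451.1.S1_at to 0.014 and 0.076 and IGF2 Ssc.9365.6.A1_x_at to 0.11 each. With 32 added, IGF2 Ssc.9365.5.S1_at became -0.0046 and Ssc.9365.6.S1_x_at 0.071. The cause was not tested.

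Leaving out 1 array at a time, changes that crossed 0 ran between -0.076 and 0.47 (IGF1 Ssc.16231.1.S1_a_at), -0.088 and 0.24 (Ssc.16231.3.S1_a_at), -0.63 and 0.27 (IGF2R), -0.30 and 0.25 (IGFBP1 Ssc.451.1.S1_at) and -0.92 and 0.14 (IGFBP6 Ssc.14062.2.S1_a_at). For IGF2 they ran between -0.29 and 0.80 (Ssc.20525.1.S1_at), -1.16 and 0.20 (Ssc.9365.1.S1_at), -0.28 and 0.66 (Ssc.9365.2.S1_a_at), -0.14 and 0.34 (Ssc.9365.3.S1_a_at), -0.072 and 0.59 (Ssc.9365.3.S1_x_at), -0.17 and 0.24 (Ssc.9365.5.A1_at), -0.0042 and 0.66 (Ssc.9365.5.S1_a_at), -0.50 and 0.57 (Ssc.9365.5.S1_at), -1.37 and 0.072 (Ssc.9365.6.A1_a_at), -0.22 and 0.21 (Ssc.9365.6.A1_x_at) and -0.96 and 1.00 (Ssc.9365.6.S1_x_at).

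Over all probe sets, 467 were called, against 763 among the brightest 66%, 1169 with array weights, 0 without an intensity trend (3706 at an unadjusted p under 0.05) and 1 to 367 with an array left out. It was 1 without E80 replicate 1, E60 replicate 1 or E60 replicate 2, 200 without E80 replicate 3 and 294 without E60 replicate 3. Calls in the pathway lists, 1 as reported, were 2 among the brightest 66%, 4 with array weights, 0 with median centring and without an intensity trend, and 0 to 1 with an array left out. The 1 call without E80 replicate 3 was EIF4EBP2 Ssc.3953.1.S1_at (log2 change -0.90). The brightest 66% and array weights added CTCF Ssc.6712.1.A1_at, and array weights also added EIF4EBP2 Ssc.30822.1.A1_at and Ssc.3953.1.S1_at.

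No paired analysis was possible because the replicate numbers were given in accession order and no label ties an array to a litter. For the 14 family probe sets at or below the median level, no detection calls were used, so whether their signals exceed the background is not known here.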
